A study of Mus musculus with 10 samples.

Results

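Bile acid synthesis and transport is described here through 10 genes, taken by their symbols in the platform's annotation from 19935 genes measured in mouse liver. They are the synthesis enzymes Cyp7a1, Cyp7b1, Cyp8b1 and Cyp27a1, the nuclear receptors Nr0b2 (SHP) and Nr1h4 (FXR), the transporters Slc10a1 (NTCP) and Abcb11 (BSEP), and the conjugating enzymes Baat and Slc27a5. All 10 were measured, each by 1 probe set, so none was lost to a filter. Total RNA came from livers of mice aged 12 weeks, 5 lacking nucleomethylin (NML-KO) and 5 wild type (WT), with 1 array per liver. Nucleomethylin is encoded by Rrp8 and is known as a component of a nucleolar complex that silences ribosomal DNA. The comparison addresses how its loss bears on the expression profile of liver, and no treatment was applied. The sources used here do not give the knockout allele, strain, sex, feeding state or time of dissection.

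Hepatocytes make bile acids from cholesterol by a classical route, opened by CYP7A1, and an alternative route, opened by CYP27A1 and continued by CYP7B1. CYP8B1 adds the hydroxyl group that makes cholic acid. In the feedback loop known in mouse liver, bile acids activate FXR, which induces SHP, and SHP in turn represses transcription of Cyp7a1 and Cyp8b1. Cyp7a1 is also known as a gene with a daily rhythm and as a target of DBP, a transcription factor of the circadian output.

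RefSeq promoter entries (build GRCm38.p6, which is not the build mm8 of the submitters' processing notes) were matched by symbol for 6 of the 10 genes, Cyp8b1, Cyp27a1, Nr0b2, Nr1h4, Slc10a1 and Abcb11, and were read over the 250 bases before the start. The 3 shown belong to the receptor whose values separated the sets of livers described below, to the synthesis enzyme with the lowest single value (in WT 2) relative to the other livers, and to the export pump known as a direct FXR target. Capitals mark a match to one of the searched motifs, which in Abcb11 lies on the opposite strand, and Cyp8b1 holds none.
Nr0b2: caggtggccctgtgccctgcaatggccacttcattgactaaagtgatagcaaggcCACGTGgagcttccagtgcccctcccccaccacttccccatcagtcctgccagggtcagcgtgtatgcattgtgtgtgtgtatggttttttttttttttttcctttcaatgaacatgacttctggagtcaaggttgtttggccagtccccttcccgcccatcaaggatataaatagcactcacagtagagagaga
Cyp8b1: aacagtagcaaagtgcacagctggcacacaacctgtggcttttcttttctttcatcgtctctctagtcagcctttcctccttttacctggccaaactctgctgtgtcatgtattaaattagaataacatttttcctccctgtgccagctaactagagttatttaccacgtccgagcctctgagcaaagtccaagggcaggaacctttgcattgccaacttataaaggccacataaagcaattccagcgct
Abcb11: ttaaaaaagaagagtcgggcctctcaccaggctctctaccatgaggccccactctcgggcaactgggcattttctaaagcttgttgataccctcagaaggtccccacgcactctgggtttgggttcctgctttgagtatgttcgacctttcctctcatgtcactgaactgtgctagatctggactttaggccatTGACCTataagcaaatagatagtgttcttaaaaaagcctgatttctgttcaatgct
These lie at chr4:133553126-133553375 (plus strand), chr9:121916306-121916555 (minus strand) and chr2:69342617-69342866 (minus strand). Both strands were searched for the E-box CACGTG, the D-box palindrome TTANGTAA bound by DBP, the nuclear receptor hexamer AGGTCA, and the same hexamer with a leading A, AAGGTCA, which overlaps it. The E-box was found in the Nr0b2 promoter alone of the 6, at 195 to 190 bases before the start, and in 6.02% of all 32851 promoters. The hexamer was found for 3 genes, in Abcb11 at 56 to 51 bases before the start, in Nr1h4 at 214 to 209 and in the second of the 2 entries of Slc10a1 at 87 to 82, and in 14.0% of all promoters. Neither the D-box palindrome (2.06% of all promoters) nor the hexamer with a leading A (4.08%) was found in the 7 entries of these genes. A match in letters is a description and does not show a bound site.

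Values are log2 intensities as deposited, and the arrays had median intensities between 62.5 and 66.7. Rrp8 lay between 6.65 and 7.19 in NML-KO livers, against 7.65 to 7.90 in WT livers (log2 difference -0.88, SE 0.10, limma adjusted p = 0.109), with no overlap. Dbp divided the livers in a way that cut across genotype. NML-KO 1, NML-KO 2, NML-KO 3, WT 1 and WT 2 had a log2 Dbp between 9.68 and 10.2 and are called Dbp-high (above 8), and NML-KO 4, NML-KO 5, WT 3, WT 4 and WT 5 lay between 6.20 and 6.60 and are called Dbp-low. These sets were read from the arrays and are not groups of the study, so a difference between them describes association with the Dbp level across these 10 livers. The sets nearly follow the replicate numbers of the labels: numbers 1 and 2 are Dbp-high and numbers 4 and 5 Dbp-low in both genotypes, and number 3 alone holds both. What the numbers stand for is not stated, so Dbp set and replicate number can hardly be told apart. With the number as a block, the sets are compared only within number 3, NML-KO 3 against WT 3. The set term of that fit was 2.59 for Cyp7a1 and -1.1 for Nr0b2, and neither passed. It is the gap between NML-KO 3 and WT 3 less the mean genotype gap of numbers 1, 2, 4 and 5. With so few livers that fit cannot tell set from number. The 6 measured hepatocyte markers averaged between 13.7 and 13.8 in every liver. Of the bile duct markers, Krt7, Krt19, Epcam and Cftr lay below the array's median in every liver.

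Between genotypes, limma called 0 of the 10 bile acid genes at an adjusted p of 0.05, as for all genes (0%), and 0 had an unadjusted p below 0.05, against 2.7% of all genes. No gene of the 10 separated the genotypes without overlap, against 0.406% of all genes, 0.135% higher and 0.271% lower in NML-KO. The median log2 difference was 0.0016 over the 10 genes, with 5 above and 5 below 0, and -0.0065 over all genes. Between Dbp sets, with genotype in the model, 2 of the 10 passed, Cyp7a1 higher and Nr0b2 lower in Dbp-high livers. Of all genes 12.9% passed, and of the 2438 genes at least as bright as the dimmest of the 10, 35.1% passed, so that the share of the list was no larger than that of equally bright genes. Without overlap, 1 of the 10 separated the Dbp sets, Nr0b2, against 12.2% of all genes, 5.04% higher and 7.12% lower in Dbp-high livers.

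**Figure D1:**
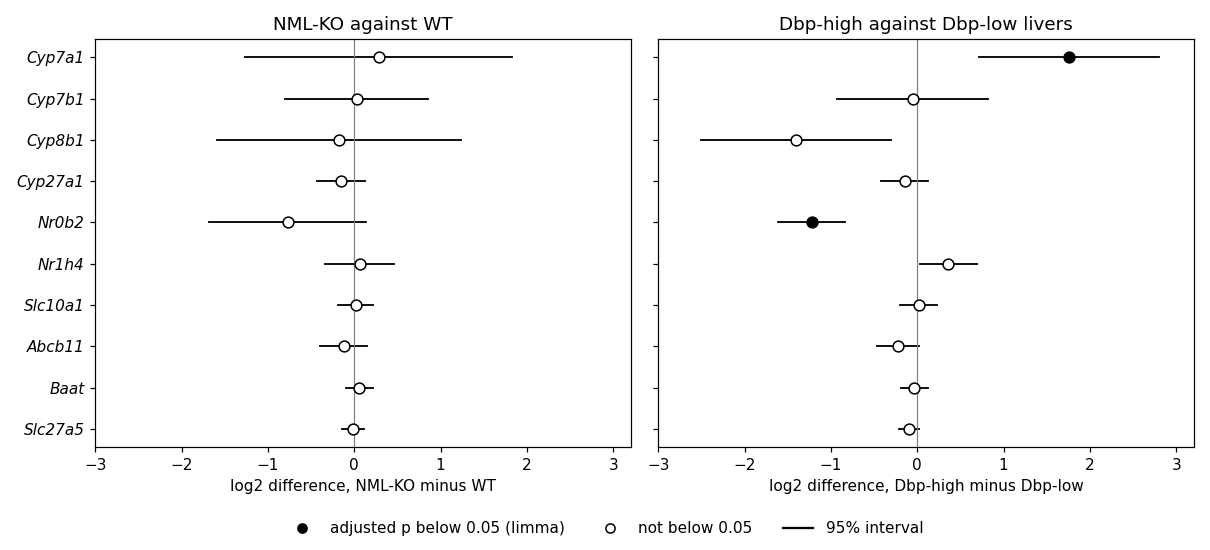
Log2 differences of the 10 bile acid genes with 95% intervals from limma over 5 and 5 livers, for NML-KO minus WT (left) and Dbp-high minus Dbp-low with genotype in the model (right). All intervals on the left include 0, and Cyp7a1 (1.76) and Nr0b2 (-1.22) are filled on the right because their adjusted p was below 0.05.

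Cyp7a1, the rate-limiting enzyme of the classical route, was 3.38-fold higher in Dbp-high livers, and it did not pass between genotypes, where its interval was wide. Its log2 intensities were 12.63, 11.45, 11.60, 9.58 and 10.30 in NML-KO 1 to 5, against 12.30, 11.24, 9.24, 11.67 and 9.69 in WT 1 to 5. The 5 Dbp-high livers lay between 11.24 and 12.63 and 4 of the Dbp-low livers between 9.24 and 10.30, but WT 4, a Dbp-low liver, lay within the Dbp-high range. The Dbp-high minus Dbp-low difference was 1.76 (SE 0.47, 95% interval 0.71 to 2.80, limma adjusted p = 0.035), and it was 1.95 among NML-KO and 1.57 among WT livers. The call was lost in 7 of the 10 fits that left out 1 liver, with a limma adjusted p of 0.103, 0.0685 and 0.0763 on leaving out WT 1, WT 3 and WT 5 and of 0.0629, 0.0524, 0.0939 and 0.076 on leaving out NML-KO 1, 3, 4 and 5, while the difference stayed between 1.56 and 2.11 over all 10 such fits. Between genotypes Cyp7a1 averaged 11.11 ± 1.19 in NML-KO and 10.83 ± 1.31 in WT livers (SD, n = 5 each). That difference of 0.28 had a 95% interval from -1.27 to 1.83, and it was -0.07 with the Dbp set in the model.

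Cyp8b1, the sterol 12-alpha-hydroxylase that sets the share of cholic acid, lay the other way, although it did not pass. It had 10.09, 10.12, 10.79, 10.20 and 11.25 in NML-KO 1 to 5, against 10.28, 8.16, 11.47, 11.79 and 11.65 in WT 1 to 5. WT 2 was far below all other livers, and the 3 highest values were the Dbp-low WT livers. Dbp-high minus Dbp-low was -1.40 (SE 0.49, 95% interval -2.50 to -0.31, limma adjusted p = 0.096), with -0.39 among NML-KO and -2.42 among WT livers. Leaving out WT 2 brought it to -0.76 (limma adjusted p = 0.117), leaving out NML-KO 4 to -1.84 (0.0346), and leaving out both, chosen after their values were seen, to -1.14 (0.0131). Between genotypes it averaged 10.49 ± 0.51 in NML-KO and 10.67 ± 1.53 in WT livers (SD, n = 5 each), a difference of -0.18 with a 95% interval from -1.59 to 1.23.

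The enzymes of the alternative route showed smaller differences. Cyp7b1, the oxysterol 7-alpha-hydroxylase, had 11.56, 11.66, 11.83, 10.25 and 11.70 in NML-KO 1 to 5, against 11.58, 10.18, 11.66, 11.59 and 11.85 in WT 1 to 5. A single liver of each genotype, NML-KO 4 and WT 2, lay more than 1 log2 unit below the other 8, which lay between 11.56 and 11.85. The genotype difference was 0.03 (95% interval -0.80 to 0.85), and the Dbp-high minus Dbp-low difference was -0.06 (95% interval -0.93 to 0.82). Both turn on these livers, the first being -0.27 without WT 2 and 0.32 without NML-KO 4, and the second 0.39 without WT 2 and -0.51 without NML-KO 4. Cyp27a1, the mitochondrial sterol 27-hydroxylase, ranged from 11.77 to 12.16 in NML-KO livers, with a median of 11.88, against 11.66 to 12.32 in WT livers, with a median of 12.15. Its genotype difference was -0.15 (95% interval -0.43 to 0.12), and its Dbp-high minus Dbp-low difference was also -0.15 (95% interval -0.42 to 0.12).

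Nr0b2, which encodes the repressor SHP, was the single one of the 10 whose Dbp sets did not overlap, 2.34-fold lower in Dbp-high livers. Its values were 8.03, 7.60, 8.38, 8.80 and 9.32 in NML-KO 1 to 5, against 8.48, 8.24, 10.04, 9.74 and 9.49 in WT 1 to 5. All Dbp-high livers lay at or below 8.48 and all Dbp-low livers at or above 8.80. The Dbp-high minus Dbp-low difference was -1.22 (SE 0.18, 95% interval -1.62 to -0.83, limma adjusted p = 0.0019), with -1.05 among NML-KO and -1.39 among WT livers. The call held in all 10 fits that left out 1 liver (limma adjusted p from 0.00114 to 0.0106). The 5 livers with the lowest Nr0b2 were the Dbp-high livers. That they lay within the upper 6 of Cyp7a1, beside WT 4, therefore only restates the differences between the sets. A relation of Nr0b2 with Cyp7a1 within the sets was not tested.

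Nr0b2 also had the widest genotype difference of the list, which did not pass. It averaged 8.43 ± 0.67 in NML-KO and 9.20 ± 0.79 in WT livers (SD, n = 5 each), a difference of -0.77 (95% interval -1.68 to 0.14, limma adjusted p = 0.999, unadjusted 0.088). In the Dbp-low set both NML-KO values were lower than the 3 of WT (-0.70), while within the Dbp-high set NML-KO 3 lay above WT 2 (-0.36). With the Dbp set in the model the difference was -0.53, with a limma adjusted p of 0.992 and an unadjusted p of 0.013, while 4.36% of all genes had one below 0.05 in that model. Nr1h4, which encodes the bile acid receptor FXR, had 10.14, 9.48, 9.89, 9.11 and 9.42 in NML-KO 1 to 5, against 9.76, 9.51, 9.51, 9.66 and 9.28 in WT 1 to 5. NML-KO 1 was the highest and NML-KO 4 the lowest of all livers. Its Dbp-high minus Dbp-low difference was 0.36 (95% interval 0.03 to 0.69, limma adjusted p = 0.152), and its genotype difference was 0.06 (95% interval -0.34 to 0.46).

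**Figure D2:**
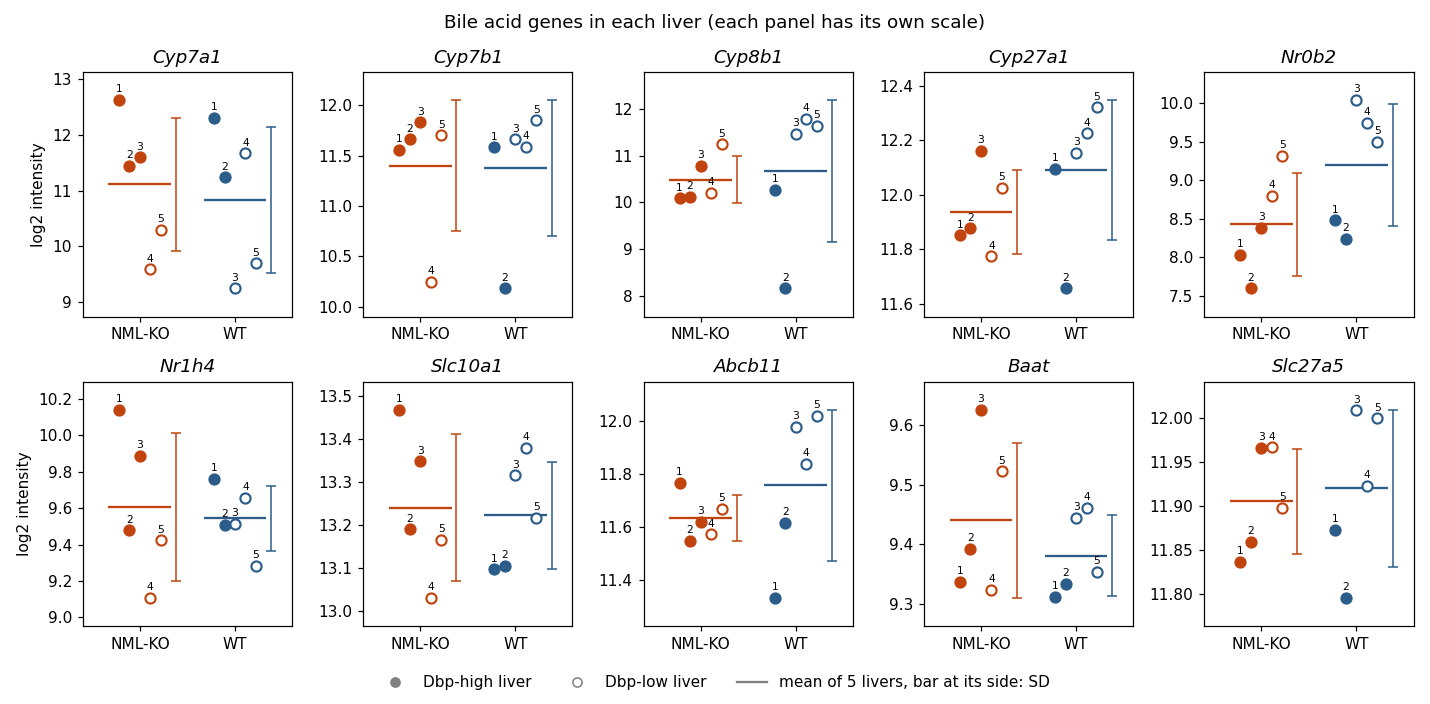
Log2 intensity of each bile acid gene in each of the 10 livers, NML-KO left of WT, with the liver's number above its point, filled points for Dbp-high and open points for Dbp-low livers, a line for the mean and a bar for the SD (n = 5). Nr0b2 shows all filled points below all open ones, Cyp7a1 shows WT 4 as the open point among the filled ones, and NML-KO 4 and WT 2 stand apart in Cyp7b1.

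Neither transporter passed in any comparison. Slc10a1, the sodium-dependent carrier that takes bile acids up from blood, had 13.47, 13.19, 13.35, 13.03 and 13.17 in NML-KO 1 to 5, against 13.10, 13.11, 13.31, 13.38 and 13.22 in WT 1 to 5. All WT values lay within the NML-KO range, with a difference of 0.02 (95% interval -0.18 to 0.22), and the Dbp-high minus Dbp-low difference was also 0.02 (95% interval -0.20 to 0.23). Abcb11, the pump that exports bile acids into the canaliculus, had 11.77, 11.55, 11.62, 11.57 and 11.67 in NML-KO 1 to 5, against 11.33, 11.62, 11.98, 11.84 and 12.02 in WT 1 to 5. The 3 Dbp-low WT livers were the highest and the Dbp-high WT 1 the lowest, while the NML-KO livers of both sets lay within 0.22 of each other. Its Dbp-high minus Dbp-low difference was -0.22 (95% interval -0.46 to 0.02, limma adjusted p = 0.218), with 0.02 among NML-KO and -0.47 among WT livers, and its genotype difference was -0.12 (95% interval -0.40 to 0.15). Without WT 1 these were -0.11 and -0.23, and quantile normalization brought the first to -0.08.

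The conjugation genes had the narrowest ranges. Slc27a5, the bile acid CoA ligase, lay between 11.84 and 11.97 in NML-KO livers, with a median of 11.90, against 11.80 to 12.01 in WT livers, with a median of 11.92. Baat, which joins bile acids to taurine or glycine, lay between 9.32 and 9.63 in NML-KO livers, with a median of 9.39, against 9.31 to 9.46 in WT livers, with a median of 9.35. Their genotype differences were -0.01 (95% interval -0.14 to 0.11) for Slc27a5 and 0.06 (95% interval -0.09 to 0.21) for Baat. Between Dbp sets the differences were -0.09 (95% interval -0.21 to 0.02) for Slc27a5 and -0.03 (95% interval -0.19 to 0.12) for Baat.

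Across the 10 livers the genes therefore spread very unequally. From the lowest to the highest liver, Cyp8b1 ranged over 12.4-fold, Cyp7a1 over 10.4-fold, Nr0b2 over 5.41-fold and Cyp7b1 over 3.19-fold, each a wider range than that of at least 94.3% of the 2438 genes as bright or brighter. The range of Cyp8b1 rests on WT 2. Without that liver it ran from 10.09 to 11.79, or 3.26-fold, below Cyp7a1 and Nr0b2, whose ranges stayed at 10.4-fold and 5.41-fold. Slc27a5 ranged over 1.16-fold, Baat over 1.24-fold and Slc10a1 over 1.35-fold, wider than 0.902%, 5.62% and 17.4% of those genes. WT 2 was the lowest liver for 4 of the 10 genes (Cyp7b1, Cyp8b1, Cyp27a1 and Slc27a5), and it was the lowest for 10.1% of all genes. NML-KO 4 was the lowest for Nr1h4 and Slc10a1, and for 11.6% of all genes. Intensities of different probe sets are not compared here as levels.

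The genotype difference lay higher in the Dbp-high set (3 NML-KO, 2 WT livers) than in the Dbp-low set (2 NML-KO, 3 WT livers) for all 10 genes, but none passed the test of this interaction. In Dbp-high livers 9 of 10 differences were above 0, with a median of 0.15, and in Dbp-low livers 9 of 10 were below 0, with a median of -0.29, against medians of -0.013 and -0.0060 over all genes. Nr0b2 was below 0 in both sets and Baat above 0 in both. The interaction had a median of 0.42 over the 10 genes and -0.0058 over all genes, of which 48.6% were above 0. By limma 0 of 10 passed an adjusted p of 0.05, as for all genes (0%), and the smallest adjusted p of the list was 0.739. An unadjusted p below 0.05 was found for 4 of the 10, against 6.49% of all genes. These were Slc10a1 (0.44, SE 0.13), Abcb11 (0.50, SE 0.15), Cyp8b1 (2.03, SE 0.78) and Cyp7b1 (1.53, SE 0.64). Without WT 2 and NML-KO 4 together, 8 of 10 interactions were above 0, with a median of 0.098, and Abcb11 (0.59) alone had an unadjusted p below 0.05, with 6.5% of all genes. Cyp7b1 then had 0.10, Cyp8b1 0.44, Slc10a1 0.38, Nr0b2 -0.04 and Cyp7a1 -0.51. The interactions of Cyp7b1 and Cyp8b1 had to shrink, since each liver left out held the lower value of the 2 in its genotype and set. Both livers were chosen after their values were seen, so this is no test of the interaction.

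**Figure D3:**
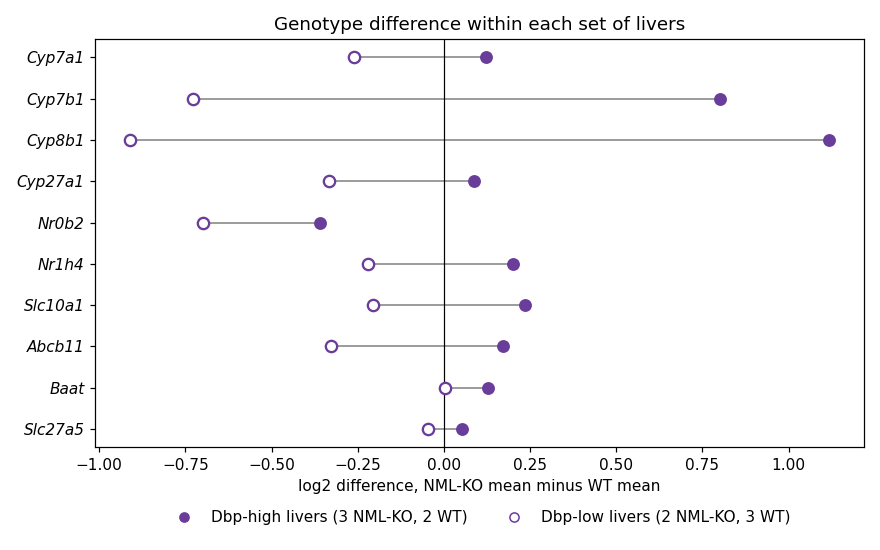
Log2 difference of NML-KO mean minus WT mean for each bile acid gene, within Dbp-high livers (filled) and within Dbp-low livers (open). The filled point lies right of the open one for all 10 genes, with the widest gaps for Cyp8b1 (1.12 and -0.91) and Cyp7b1 (0.80 and -0.73), and no gap passed the adjusted test.

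Of 48 other genes of bile acid synthesis, transport and sensing, 45 were measured, and 0 passed between genotypes in limma, as for all genes (0%). An unadjusted p below 0.05 was found for 2 of the 45, against 2.7% of all genes. These were Scp2, a sterol carrier whose thiolase form shortens the side chain, and Acot8, a peroxisomal thioesterase. Scp2 had 12.90, 12.65, 12.76, 12.75 and 12.73 in NML-KO 1 to 5, against 12.51, 12.11, 12.56, 12.41 and 12.70 in WT 1 to 5, a difference of 0.30 (SE 0.10, limma unadjusted p = 0.0144, adjusted p = 0.999). WT 5 lay within the NML-KO range and the other WT livers below it. Acot8 differed by -0.18 (SE 0.08), with an unadjusted p of 0.0488 in limma, Cyp39a1, the oxysterol 7-alpha-hydroxylase that prefers 24-hydroxycholesterol, by 0.34 (SE 0.29; 0.15 without WT 1 and 0.51 without NML-KO 2), and Fgfr4, the hepatic receptor for the intestinal signal FGF15, by -0.27 (SE 0.14). In the interaction the smallest unadjusted p belonged to Nr5a2 (-0.49, SE 0.13, limma adjusted p = 0.717), which encodes LRH-1, an activator of Cyp7a1 and Cyp8b1. It was followed among negative values by Fgfr4 (-0.50, SE 0.20), and the positive values were led by Abcd3 (0.97, SE 0.30), a peroxisomal importer of bile acid precursors, and Abcc3 (0.43, SE 0.15), a basolateral exporter. Without WT 2 and NML-KO 4 these interactions were -0.32 for Nr5a2, -0.18 for Fgfr4, 0.40 for Abcd3 and 0.34 for Abcc3, and without NML-KO 4 alone Fgfr4 was at -0.26 and Abcd3 at 0.65.

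Between Dbp sets, 11 of the 45 other genes passed in limma, 6 higher and 5 lower in Dbp-high livers (24.4%), against 12.9% of all genes, 4.92% higher and 7.99% lower. Of the 29 that were at least as bright as the dimmest of the 10 bile acid genes, 7 passed (24.1%), against 35.1% of all genes that bright, so their share was no larger. Of 14 enzymes, 1 passed as higher and 2 as lower. Hsd3b7, which acts after 7-alpha-hydroxylation in both routes, had 9.93, 10.23, 10.29, 10.12 and 9.77 in the Dbp-high livers NML-KO 1 to 3, WT 1 and WT 2, against 10.93, 10.95, 11.25, 10.99 and 10.99 in the Dbp-low livers NML-KO 4, NML-KO 5 and WT 3 to 5. The sets did not overlap, and Hsd3b7 was 1.94-fold lower in Dbp-high livers (log2 difference -0.96, SE 0.11, limma adjusted p = 0.00062), whereas Cyp7a1, which acts just before it in the classical route, was higher. Hsd17b4, the peroxisomal D-bifunctional enzyme, was higher by 0.49 on the log2 scale (SE 0.08, limma adjusted p = 0.0031), with 10.92 to 11.22 in Dbp-high and 10.44 to 10.74 in Dbp-low livers. It was named after its value was seen, as the single enzyme of the list to pass as higher. Cyp2c70, which makes the muricholic acids of mice, was 1.63-fold lower (limma adjusted p = 0.042), but its call was lost on leaving out any WT liver (0.0619, 0.0762, 0.0837, 0.0924 and 0.0846 for WT 1 to 5), NML-KO 2 (0.0744) or NML-KO 5 (0.0893), and also with quantile normalization (0.0797).

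Among the transport genes, 1 of 4 for uptake, 1 of 6 for canalicular export and 0 of 4 for basolateral export passed between Dbp sets. Of all genes 12.9% passed, and the counts by role are too small to set against that share. Abcc2, the canalicular pump MRP2, had 12.67, 12.63, 12.67, 12.68 and 12.77 in the Dbp-high livers NML-KO 1 to 3, WT 1 and WT 2, against 11.82, 12.01, 12.22, 12.13 and 12.09 in the Dbp-low livers NML-KO 4, NML-KO 5 and WT 3 to 5. The sets did not overlap, and Abcc2 was 1.58-fold higher in Dbp-high livers (log2 difference 0.66, SE 0.06, limma adjusted p = 0.00014). For Abcb11, the pump for monovalent bile salts, the corresponding difference of -0.22 did not pass. Slco1a4, an organic anion uptake carrier, was 2.01-fold higher (limma adjusted p = 0.028), with 8.09 to 9.86 in Dbp-high and 7.72 to 8.30 in Dbp-low livers, led by WT 2. Its call was lost without WT 3 (0.0588), WT 5 (0.0605), NML-KO 2 (0.0546), NML-KO 3 (0.0527) or NML-KO 5 (0.0671).

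Of 14 measured sensors and regulators, 3 passed as higher and 1 as lower in Dbp-high livers, against 4.92% and 7.99% of all genes. Such counts are too small to set against those shares. Nr1d2 and Nr1d1, which encode the clock repressors REV-ERB beta and alpha, were 5.81-fold higher (log2 difference 2.54, SE 0.20, limma adjusted p = 8.54e-05) and 4.29-fold higher (2.10, SE 0.53, adjusted p = 0.028). Like Dbp, which formed the sets, both are genes of the circadian clock. Nr1d1 divided the Dbp-low livers further, with 7.92 and 7.05 in NML-KO 4 and NML-KO 5, against 9.86, 7.24 and 9.41 in WT 3 to 5. WT 4, the Dbp-low liver with a high Cyp7a1 (11.67), was the WT liver with the low Nr1d1. NML-KO 4 and NML-KO 5, which were also low in Nr1d1, had a low Cyp7a1 (9.58 and 10.30). The call for Nr1d1 was lost without WT 2 (limma adjusted p = 0.0647), NML-KO 2 (0.0552), NML-KO 3 (0.0534), NML-KO 4 (0.0588) or NML-KO 5 (0.0965). Klb, the co-receptor that FGFR4 needs for FGF15, was 1.58-fold higher (limma adjusted p = 0.024), a call lost without WT 3 (0.053), WT 5 (0.0537) or NML-KO 5 (0.0733). Nr1h3, which encodes the oxysterol receptor LXR alpha, was 1.59-fold lower without overlap, with 8.93 to 9.34 in Dbp-high and 9.71 to 10.02 in Dbp-low livers (log2 difference -0.67, SE 0.09, limma adjusted p = 0.0015).

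Of 3 measured conjugation and sulfation genes besides Baat and Slc27a5, 2 passed as lower in Dbp-high livers and none as higher. Of all genes 12.9% were called and 7.99% were lower, and the count is too small to set against that share. Acnat2 and Acnat1 are relatives of Baat that encode peroxisomal acyltransferases. Acnat2 was 2.38-fold lower, with 6.42 to 6.86 in Dbp-high and 7.31 to 8.60 in Dbp-low livers (log2 difference -1.25, SE 0.21, limma adjusted p = 0.0046). Acnat1 was 1.46-fold lower, with 11.73 to 12.14 in Dbp-high and 12.36 to 12.62 in Dbp-low livers (-0.55, SE 0.06, limma adjusted p = 0.00035). Neither overlapped between sets, while Baat itself differed by -0.03. The 3 genes are similar in sequence, and cross-hybridization between their probe sets was not tested.

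**Figure D4:**
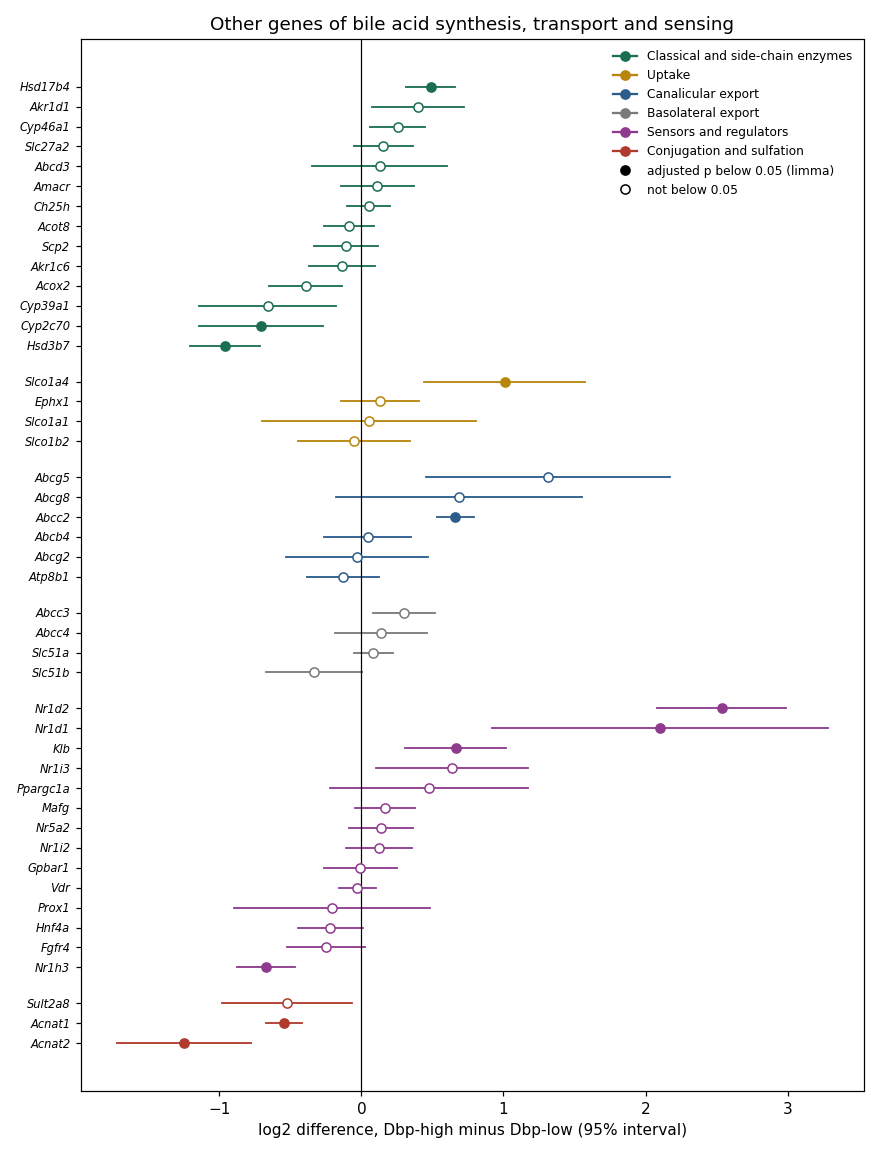
Log2 difference of Dbp-high minus Dbp-low livers, with genotype in the model and 95% intervals from limma (5 and 5 livers), for 45 other genes grouped by role and sorted within each role. The 11 filled points passed an adjusted p of 0.05, from Nr1d2 at 2.54 to Acnat2 at -1.25.

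Of 33 measured markers of liver cell types in 6 lists, 3 passed between the Dbp sets in limma (9.09%), against 12.9% of all genes, so their share was no larger. Sox9, a bile duct marker of which hepatocytes express some, was lower in Dbp-high livers (log2 difference -1.13, SE 0.12, limma adjusted p = 0.00038). Slc10a2, of the same list, lay the same way without passing (-0.72, SE 0.22, limma adjusted p = 0.058). The other 4 of the 6 bile duct markers lay slightly above 0 (Krt7 0.06, Krt19 0.08, Epcam 0.07 and Cftr 0.06), but below the array's median in every liver. Vsig4, a Kupffer cell marker, was lower (-1.24, SE 0.31, limma adjusted p = 0.026), and 6 of 7 markers of that list lay below 0. Alb, the hepatocyte product albumin, was higher by 0.21 (SE 0.041, limma adjusted p = 0.0090), while 3 of the 6 hepatocyte markers lay below 0 (Ttr -0.12, Apoa1 -0.07 and Fah -0.08). All 4 stellate cell markers lay below 0, with none past the threshold. The list means ran from 5.95 to 6.11 in Dbp-high and 6.10 to 6.43 in Dbp-low livers for 6 bile duct markers, from 7.26 to 8.11 and 7.85 to 8.54 for 7 Kupffer cell markers, from 7.89 to 8.63 and 8.57 to 8.77 for 4 stellate cell markers, and from 8.32 to 8.73 and 8.48 to 8.68 for 5 sinusoidal endothelial markers. The 5 neutrophil markers lay below the array's median in every liver. Between genotypes 0 of 33 markers passed (0% of all genes), with bile duct means of 5.95 to 6.31 in NML-KO and 6.02 to 6.43 in WT livers. In whole liver, fewer cells of a type and less RNA per cell cannot be told apart, and the part of these markers in the differences between Dbp sets was not tested.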

How the data were processed

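The values deposited by the authors are linear intensities, from 18.4 to 29834, for 28815 probe sets on each of 10 arrays. Per the labels' protocols, RNA was extracted with Sepazol, fragmented and biotinylated. The submitters' processing notes name build mm8. The sources used here do not say how background, normalization and summarization were done. Intensities were taken to log2 as deposited. Of the probe sets, 21780 had 1 symbol, 1605 several and 5430 none in the platform table, and only the first were used. Where a gene had several probe sets, that with the highest mean was kept, leaving 19935 genes.

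NML-KO was compared with WT, and Dbp-high (log2 Dbp above 8) with Dbp-low livers with genotype in the model, and their interaction was tested, by limma 3.58.1 in R 4.3.3 over all genes, with Benjamini-Hochberg adjustment and a threshold of 0.05. The fit was tested on simulated data. Genes, lists and tests were chosen with earlier results of these data known. Other pathway genes were named if past the threshold, at most 5 per direction by size, or else the 2 per direction with the smallest p. The p-values weigh each difference against the spread between these livers, taken as independent. The labels state nothing of litters, so that independence could not be checked. Replicate numbers in the titles were checked for pairing. Quantile normalization, median centring, another rule for several probe sets, an offset, omitting dim genes, other model terms and leaving out single livers were tried as alternatives. The number of arrays limits the precision.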

Additional observations from a re-analysis of the deposited data

Results flagged for a closer look

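Among the named genes, 3 values in groups of 5 livers lay further from the rest of their genotype than Dixon's 95% limit. That limit is 0.71 for the gap over the range, and chance passes it in about 1 of 20 groups. Both genotypes of each named gene were searched, so several such values can be due to chance, and these 3 are not set apart from that. Cyp7b1 was at 10.2 in NML-KO 4, with the next NML-KO liver at 11.6 (gap over range 0.828). It was also at 10.2 in WT 2, with the next WT liver at 11.6 (0.838). Abcd3 was at 11.1 in WT 2, with the next WT liver at 11.6 (0.803). No genotype difference of a named gene differed between Dbp-high and Dbp-low livers by the adjusted interaction test of limma.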

How the results depend on the processing

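Between genotypes, 0 of the 10 bile acid genes and 0 of the 45 others passed under all 7 other settings, all 10 fits without 1 liver, and the fit without WT 2 and NML-KO 4, added after seeing the data. Over all genes the count was 0 to 1 with 1 liver left out. With the Dbp set in the model the sign turned for Cyp7a1 (-0.0701), Cyp8b1 (0.103), Nr1h4 (-0.00923) and Slc27a5 (0.00402). With 1 liver left out the sign turned for Cyp7a1 (-0.115 to 0.664), Cyp7b1 (-0.271 to 0.315), Cyp8b1 (-0.805 to 0.103), Nr1h4 (-0.0706 to 0.188), Slc10a1 (-0.0389 to 0.0704) and Slc27a5 (-0.0456 to 0.00749). Between Dbp sets, quantile normalization turned Cyp7b1 (0.0841), Baat (0.0384) and Slc27a5 (0.0443), and leaving out dim genes put Cyp8b1 past the threshold (adjusted p = 0.0406 by limma), where the unadjusted p was 0.00915 against 0.0174, and the cause was not tested. An offset of 16 (0.052) and no genotype term (0.0522) ended the call of Cyp2c70. With 1 liver left out, 1 to 2 bile acid genes, 7 to 13 others and 1625 to 2557 of all genes passed, the lowest of the last 2 counts without NML-KO 5, and the sign turned for Cyp7b1 (-0.512 to 0.39) and Slc10a1 (-0.0594 to 0.0696). Without WT 2 and NML-KO 4, Slc10a1 was -0.0184, 2 bile acid genes passed, Nr0b2 and Cyp8b1, and the calls of Cyp7a1 (adjusted p = 0.102 by limma), Nr1d1 (0.136), Slco1a4 (0.0972), Klb (0.111) and Cyp2c70 (0.092) were lost. The interaction had 0 calls among the bile acid genes throughout and 0 to 13 over all genes with 1 liver left out (11 without WT 1, 13 without NML-KO 5). Cyp7a1 ranged from -0.353 to 0.915 there, and without WT 2 and NML-KO 4 Cyp7a1 was -0.509 and Nr0b2 -0.0376. Leaving out WT 1, WT 2, NML-KO 4 or NML-KO 5 leaves 1 liver of that genotype in its Dbp set. Those interaction fits therefore rest on single livers.

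Same-numbered livers of the genotypes correlated at 0.438, 0.264, -0.416, 0.348 and 0.537 in their deviations for numbers 1 to 5, so that 1 of the 5 fell short of the 0.1 asked of every pair, and the numbers were not taken to pair the livers. That one, number 3, is also the single number whose livers lie in different Dbp sets. The deviations were taken from the genotype mean alone and still hold the difference between Dbp sets. The check therefore cannot decide whether the numbers pair the livers. With the replicate block the genotype comparison kept 0 calls. In the Dbp comparison the replicate block left the sets apart only within number 3, so that 2 of all genes, 0 bile acid genes and 0 others passed, with Cyp7b1 at 0.175, Cyp27a1 at 0.2, Baat at 0.153, Cyp7a1 at 2.59 and Nr0b2 at -1.1.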
